A study of Homo sapiens with 12 samples.

Results

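The KYSE150 line, derived from a squamous cell carcinoma of the oesophagus, was compared 48 h after transfection between siANLN, in which a small interfering RNA (siRNA) targets ANLN, and siNC, its control siRNA. The comparison holds the 3 siANLN and the 3 siNC libraries of that time, 6 of the 12 libraries of the series, and every gene of their count table. The study asks how anillin, the product of ANLN, bears on RNA polymerase II clusters and on the genes that depend on them. The labels give the siNC cells as wild type and the siANLN cells as ANLN knockdown, and both arms were transfected cells of the same line. The labels name no more than 1 siRNA per arm, and no siRNA sequence is used here. The labels number the libraries as biological replicates, and separate transfections are not stated, so p-values measure only the spread between these libraries.

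Anillin is a scaffold protein that binds actin filaments, non-muscle myosin II, septins and the small GTPase RhoA, and it organises the contractile ring that divides a cell in cytokinesis. Between divisions most anillin lies in the nucleus. Squamous epithelial cells are marked by paired basal keratins, by the transcription factor p63 and by desmosomes, and oesophageal tumours of this type often carry active EGFR and NRF2 signalling.

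Poly(A) RNA was sequenced, and the files give whole-number read counts per gene. Totals ran from 11805488 to 12448411 counts per library. After repeated lines had been kept once, 38318 gene IDs were listed and 16994 had enough counts to be tested. Levels are given as CPM (counts per 1000000 of the library, scaled with TMM factors), and changes as log2 of siANLN over siNC with their standard error (SE), both from edgeR. A signed or plain value alone in brackets after a gene is its log2 change. In bulk RNA, fewer cells of a kind and less RNA per cell cannot be told apart. Of 10 squamous markers 9 lay above 1 CPM, with SOX2 between 0.247 and 0.678 CPM, and their summed level was 5290 to 5500 CPM in siNC and 2570 to 2620 CPM in siANLN. The epithelial markers summed to 3400 to 3480 and 3590 to 3700 CPM, although KRT19, one of 5, lay below 1 CPM. Of the 5 leukocyte markers in the table only CD68, which many cell types express, lay above 1 CPM on average, with 34.1 to 40.8 CPM in siNC and 63.4 to 64 CPM in siANLN, and PTPRC, which defines leukocytes, was at 0 in 5 of the 6 libraries. Of the 5 fibroblast markers in the table only COL1A1 lay above 1 CPM, and COL1A2 and PDGFRB were at 0 throughout. Endothelial markers summed to at most 2.1 CPM, and of the melanocyte markers PMEL (27 to 30.7 CPM) and MLANA were above 1 CPM in both groups. The part of such cells in the results was not tested.

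ANLN itself (ENSG00000011426, GRCh38 chromosome 7, 36389806 to 36453791, plus strand) stood at 731, 739 and 722 CPM in the siNC libraries and 83.7, 74.6 and 84.2 CPM in the siANLN libraries. The groups were far apart, and 11.1% of the control level remained (log2 −3.18, SE 0.03, edgeR Benjamini-Hochberg adjusted p = 9.19e-274). In the authors' deposited FPKM, which also scale by gene length, ANLN averaged 123 FPKM in siNC and 13.3 FPKM in siANLN.

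Of the 16994 genes tested, 7402 changed at an adjusted p under 0.05 (43.6%), 3778 upward (22.2%) and 3624 downward (21.3%). Most changes were small. The median absolute log2 change of the called genes was 0.303, and 74.6% of them lay under 0.5. Upward 127 genes passed 2-fold (0.747%), and downward 293 did (1.72%). In 8438 genes (49.7%) the siANLN libraries did not overlap the siNC libraries. With a spread this small between libraries (common biological coefficient of variation 0.02), the smallest change called was 0.053 on the log2 scale, so a call alone says little about size. The median over all genes tested was −0.003. Counts of members in the gene groups below are to be read against these shares. For groups of abundant genes the share of rises is higher. Of protein-coding genes above 100 CPM 44.2% rose and 24.4% fell.

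**Figure D1:**
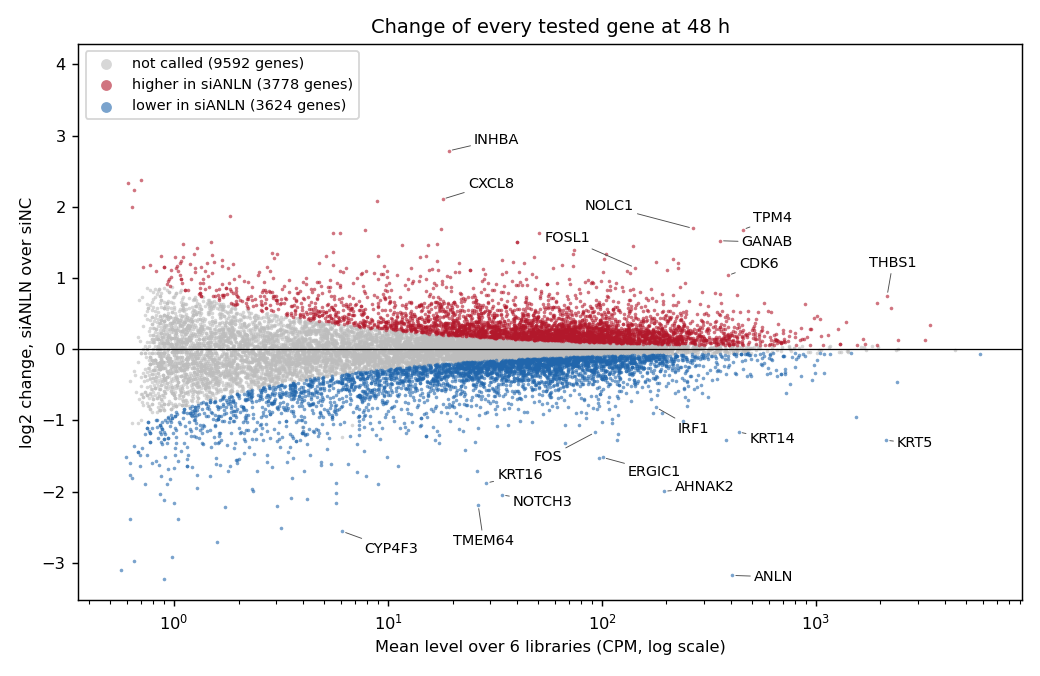
Log2 change of siANLN over siNC (vertical axis) against the mean level of the 6 libraries in CPM (log scale) for 16994 tested genes at 48 h, with called genes in red (3778 higher) and blue (3624 lower). ANLN lies lowest among the abundant genes, at −3.18, INHBA highest of the labelled genes at 2.79, and most called genes lie close to 0.

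Among protein-coding genes averaging 5 CPM or more whose groups did not overlap, INHBA rose most. INHBA encodes the beta A subunit of activin A, a ligand of the TGF-beta family. It was at 5.13, 4.09 and 5.38 CPM in the siNC libraries and 34.6, 33.7 and 32.3 CPM in the siANLN libraries, a 6.89-fold rise (log2 2.79, SE 0.10, edgeR Benjamini-Hochberg adjusted p = 5.13e-87). CXCL8, the neutrophil chemokine interleukin-8, was at 7.61, 5.64 and 7.07 CPM in the siNC libraries and 31.2, 27.6 and 28.7 CPM in the siANLN libraries (4.31-fold, log2 2.11, SE 0.10). In both genes the lowest siANLN library was well above the highest siNC library.

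Next in size among the rises came 13 other genes of mixed function. ZNF616, ZNF267 and ZNF664 encode zinc finger proteins and rose 4.25-fold, 2.78-fold and 2.63-fold. HABP4 and G3BP2, which encode RNA-binding proteins, the second of stress granules, went from 8.34 ± 1.41 to 26.9 ± 0.775 CPM and from 75 ± 0.798 to 205 ± 8.41 CPM. ZW10, a checkpoint protein of the kinetochore, went from 21 ± 0.368 to 59.4 ± 2.15 CPM, and MESD, a chaperone of Wnt co-receptors, from 20.9 ± 1.27 to 59 ± 1 CPM. OLR1, a receptor for oxidised low-density lipoprotein, rose 2.77-fold. The others of the 13 were NOLC1, TPM4, GANAB, AOX1 and IL1R2, described with their groups. Among genes averaging 100 CPM or more, MICAL2, an enzyme that oxidises actin, rose 2.41-fold, MKNK2, a kinase of the translation factor eIF4E, 2.4-fold, and NEDD4L, a ubiquitin ligase, 2.35-fold.

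Among the falls, CYP4F3, an omega-hydroxylase of leukotriene B4, went from 10.4 ± 0.804 to 1.77 ± 0.578 CPM (log2 −2.56, SE 0.18), but its control level lay more than 4-fold above that in the 24 h table, so its value is uncertain. TMEM64, a membrane protein, went from 43.2 ± 1.37 to 9.49 ± 0.517 CPM (log2 −2.19, SE 0.08). AHNAK2, a giant scaffold protein, was at 317, 298 and 321 CPM in the siNC libraries and 80.1, 77.1 and 77.5 CPM in the siANLN libraries, without overlap (log2 −1.99, SE 0.04, edgeR Benjamini-Hochberg adjusted p = 1.80e-183). Its neighbour PLD4, which overlaps it on the opposite strand, changed by −1.89, and without a strand setting reads of both genes cannot be told apart. The neuronal trafficking gene HAP1 (−2.02), MAB21L4 (−2.15), APOL3, an apolipoprotein L (−1.78), the actin-binding MARCKSL1 (−1.64), the basement membrane gene NID1 (−1.61) and SECTM1 (−1.61) fell as well. Of abundant genes ERGIC1, HACD2, ANKFY1 and NDST1 also fell. HACD2, which extends very long fatty acids, went from 166 ± 2.34 to 72.7 ± 2.25 CPM, ANKFY1, an endosomal Rab5 effector, from 134 ± 2.65 to 66.3 ± 1.65 CPM, and NDST1, which sulphates heparan sulphate chains, from 320.3 ± 2.76 to 159.7 ± 5.51 CPM. The unnamed gene ENSG00000289252 went from 166 ± 5.94 to 68.6 ± 1.94 CPM.

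**Figure D2:**
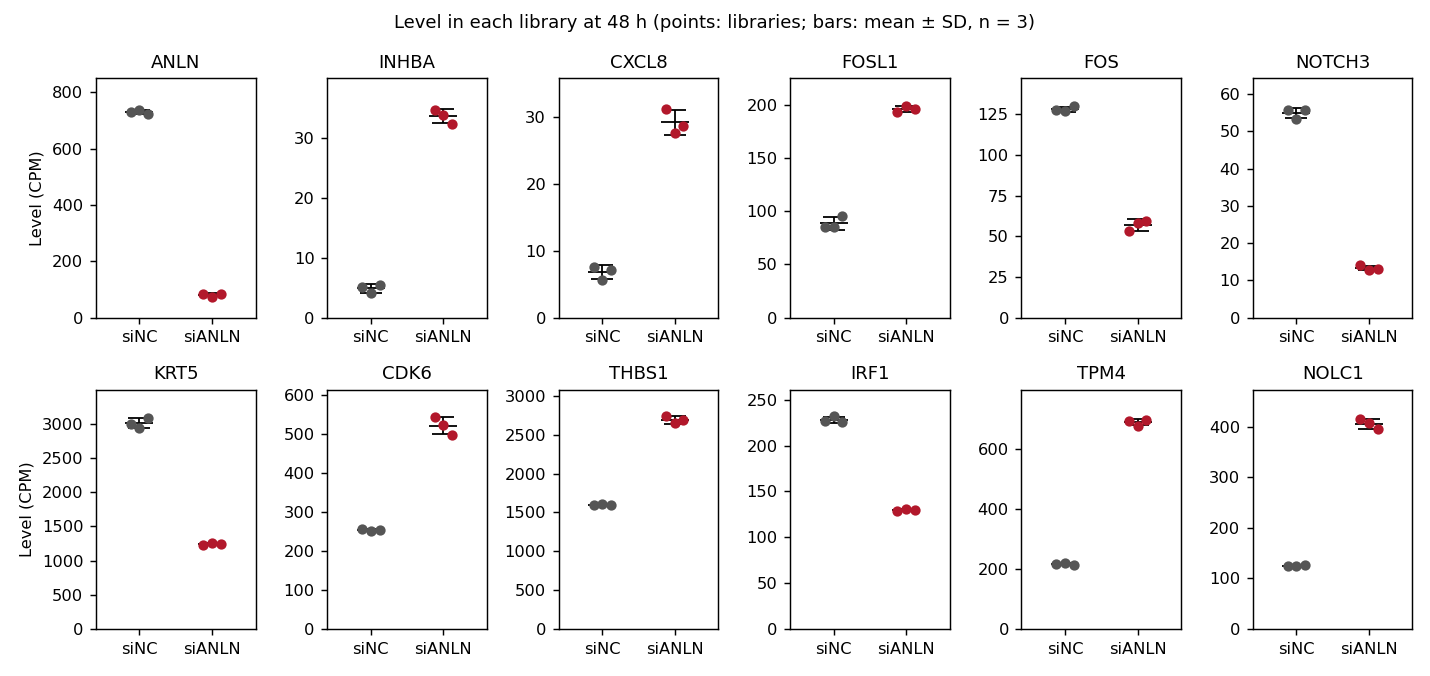
Level in CPM (vertical axes, from 0) of 12 genes in each of the 3 siNC and 3 siANLN libraries at 48 h, with points for libraries and bars for mean ± SD. In each of the 12 genes the groups do not overlap, for example in THBS1, with at most 1603 CPM in siNC and at least 2649 CPM in siANLN.

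Secreted ligands and their binders moved in both directions. Of 17 tested activin, TGF-beta and BMP ligands and binders (22 listed), 7 rose, 3 fell and 7 did not pass the test. Besides INHBA, the growth inhibitors TGFB1 (log2 0.37, SE 0.03) and TGFB2 (log2 0.29, SE 0.04) rose, as did LTBP3 and LTBP4, which hold TGF-beta in the matrix (0.13 and 0.14, calls that limma-trend on FPKM did not make). FSTL3, a follistatin-like binder that neutralises activin, was at 63.7, 60.4 and 66.4 CPM in siNC and 37.1, 39.1 and 39.1 CPM in siANLN, with no overlap (log2 −0.72, SE 0.06, edgeR Benjamini-Hochberg adjusted p = 4.70e-30). INHA, the inhibin alpha chain that joins beta A into inhibin, changed by −0.72 from a low 2.68 ± 0.736 to 1.63 ± 0.249 CPM, and BMP7 by −0.81. The call of INHA did not hold in DESeq2 or without siNC replicate 3 or siANLN replicate 1. FST, follistatin, another neutraliser of activin, was named after its value was seen. It rose from a low 4.74 ± 0.498 to 6.36 ± 1.4 CPM (log2 0.42, SE 0.16), and its groups overlapped. NOG, the BMP inhibitor noggin, likewise named after its value was seen, rose from a low 0.636 ± 0.349 to 1.24 ± 0.111 CPM. Per length, in the deposited FPKM, INHBA averaged 0.593 FPKM in siNC and 3.99 FPKM in siANLN, and FSTL3 21.1 FPKM in siNC and 12.5 FPKM in siANLN.

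The receptors and SMADs of the family were divided, with 5 of 22 higher and 7 lower (median −0.11). The activin receptor gene ACVR2B rose (log2 0.50, SE 0.06), as did the signal carrier SMAD3 (log2 0.35, SE 0.03) and the repressor SKI (log2 0.51, SE 0.04). TGFBR2, the type II TGF-beta receptor, fell (log2 −0.21, SE 0.03), as did the other activin and TGF-beta signal carrier SMAD2 (log2 −0.37, SE 0.04), the BMP carrier SMAD1 (−0.28), the inhibitory SMAD6 (−0.66) and the corepressor TGIF1 (−0.26).

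Of 17 listed chemokines 12 were in the count table, and only 5 had enough counts to be tested. CXCL1, CXCL5, CXCL6, CXCL9 and CXCL12 were not in it, so their levels are not known. CXCL8 and CXCL2, ligands of the receptor CXCR2, rose (CXCL2 from 2.76 ± 0.434 to 5.53 ± 0.652 CPM), and CXCL11 (from 2.07 ± 0.403 to 1.15 ± 0.308 CPM) and CXCL16 (from 12.2 ± 0.831 to 8.69 ± 0.153 CPM) fell. CXCL10, which like CXCL11 is a ligand of CXCR3, changed by −0.51 and did not pass the test. The fall of CXCL11 did not hold in DESeq2 or without siNC replicate 2 or siANLN replicate 2.

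In the interleukin-1 family, 4 of 11 tested genes rose, 2 fell and 5 did not pass. IL1A, an alarmin of epithelial cells, was at 78, 83.1 and 79.1 CPM in the siNC libraries and 155, 152 and 150.1 CPM in the siANLN libraries (log2 0.93, SE 0.04, edgeR Benjamini-Hochberg adjusted p = 1.29e-73). Its groups did not overlap, nor did those of IL1B, which went from 18.7 ± 1.13 to 36.3 ± 1.05 CPM (log2 0.95, SE 0.07). The decoy receptor gene IL1R2 and the signalling receptor gene IL1R1 rose from low levels (3.1 ± 0.452 to 8 ± 0.49 CPM and 1.96 ± 0.455 to 3.3 ± 0.588 CPM). The receptor antagonist gene IL1RN fell from 1.96 ± 0.237 to 0.771 ± 0.115 CPM (log2 −1.33, SE 0.33), and IL18R1 changed by −0.48. IL18 (−0.08), IL18BP (0.04), the co-receptor IL1RAP (−0.10), IL36RN (−0.71) and SIGIRR (0.12) did not pass the test. The call of IL1R1 did not hold in limma-trend on FPKM, and that of IL18R1 was lost in DESeq2, in limma-trend, without any 1 of the siNC libraries and without siANLN replicate 1.

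Among 17 genes of the interleukin-6 family and colony-stimulating factors, 4 rose and 7 fell (median −0.04). CSF3, the granulocyte factor, was at 0.331, 0.163 and 0.168 CPM in siNC and 1.3, 0.935 and 1.31 CPM in siANLN and did not overlap (log2 2.37, SE 0.51), though all 6 values were near or below 1 CPM. LIF (log2 0.43, SE 0.05) and IL24 (log2 0.91, SE 0.16) rose, while IL6 (−0.30), IL11 (−0.54), the monocyte factor CSF1 (−0.33), the feedback inhibitor SOCS3 (−0.39) and the receptor gene IL22RA1 (−0.84) fell.

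The EGFR family showed ligands and receptors on opposite sides. Of the ligands, TGFA was at 64.7, 64.1 and 56.2 CPM in the siNC libraries and 119, 119 and 118 CPM in the siANLN libraries (log2 0.94, SE 0.04, edgeR Benjamini-Hochberg adjusted p = 7.51e-65), without overlap. HBEGF went from 10.1 ± 0.669 to 19.9 ± 0.331 CPM, AREG from 23.4 ± 1.42 to 37.9 ± 1.67 CPM and NRG1 from 93.1 ± 1.5 to 130.4 ± 1.06 CPM, all upward, while NRG2 (−0.16) and NRG4 (−0.39) did not pass the test. The receptor genes EGFR (from 745 ± 10.8 to 573 ± 9.13 CPM, log2 −0.38, SE 0.02), ERBB2 (−0.12) and ERBB3 (−0.16) fell. In all 4 of 11 tested members rose and 3 fell, and LRIG3 (−0.06) and the inhibitor ERRFI1 (−0.12) did not pass. The fall of ERBB2 did not hold in DESeq2 or without siANLN replicate 1.

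Genes that ERK signalling induces, many of which then damp it, were mostly higher: 11 of 18 tested rose and 3 fell, with a median of 0.25. FOSL1, the AP-1 subunit FRA-1, was at 85.3, 85.2 and 95.5 CPM in the siNC libraries and 193, 199 and 196 CPM in the siANLN libraries (log2 1.15, SE 0.04, edgeR Benjamini-Hochberg adjusted p = 1.32e-102). PHLDA1, a pleckstrin-domain feedback gene, went from 141 ± 0.148 to 311 ± 9.22 CPM, SPRY4, a Sprouty inhibitor, from 6.27 ± 0.265 to 13.5 ± 0.972 CPM, the ETS factor gene ETV4 from 25.6 ± 1.63 to 41.9 ± 1.75 CPM and the ERK phosphatase gene DUSP5 from 29.2 ± 1.7 to 47.2 ± 1.6 CPM. None of these groups overlapped. DUSP7 (−0.44), EGR1 (log2 −0.43, SE 0.03) and CCND1 (log2 −0.34, SE 0.03) fell, and MYC (0.07), DUSP4 (−0.10), SPRED2 (−0.12) and SPRED3 (0.01) did not pass the test.

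Within AP-1, 5 of 13 tested subunits rose and 5 fell, and the FOS relatives parted. FOS was at 128, 127 and 129.9 CPM in the siNC libraries and 52.9, 58.4 and 59.7 CPM in the siANLN libraries, the reverse order of FOSL1 (log2 −1.17, SE 0.04, edgeR Benjamini-Hochberg adjusted p = 7.41e-86), and FOSB fell too (log2 −0.80, SE 0.07). The control level of FOS was 8.12 times that in the 24 h table, so its value is uncertain. Of the partners, JUN (from 126 ± 2.7 to 183 ± 5.69 CPM) and MAFF (log2 0.68, SE 0.07) rose, JUNB fell (log2 −0.23, SE 0.03), and JUND (0.15) and MAFK (0.13) rose slightly, calls that limma-trend on FPKM did not make. MAFK was not called in DESeq2, under library totals or without siANLN replicate 2 either. FOSL2 (0.03), JDP2 (0.12) and MAFG (0.05) did not pass. Per length, FOS averaged 40.6 FPKM in siNC and 17.6 FPKM in siANLN, against 47.4 FPKM in siNC and 102 FPKM in siANLN for FOSL1.

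In the cell cycle group 10 of 25 tested genes rose and 7 fell, with a median of −0.001. CDK6, a kinase that drives G1 with D-type cyclins, was at 257, 250.2 and 255 CPM in the siNC libraries and 543, 523 and 499 CPM in the siANLN libraries (log2 1.04, SE 0.03, edgeR Benjamini-Hochberg adjusted p = 5.66e-131). CCNA2 (0.28), CCNB1 (0.14), CCNB2 (0.18) and the repressor E2F7 (0.28) rose by far less. CDKN1A, the inhibitor p21, was at 141, 145 and 152 CPM in the siNC libraries and 82.3, 87.3 and 82.9 CPM in the siANLN libraries, again without overlap and in the reverse direction (log2 −0.79, SE 0.04). CCND1 and CCNE2 (log2 −0.49, SE 0.07) fell as well. Of 22 tested p53 targets 6 rose and 8 fell (median −0.10). There the proapoptotic BH3-only genes PMAIP1 (log2 0.50, SE 0.03) and BBC3 (0.43) and the kinase gene PLK2 (0.24) rose, and CDKN1A, PHLDA3 (−0.52), DDB2 (−0.29), CCNG1 (−0.18) and TP53INP1 (from 2.84 ± 0.727 to 0.604 ± 0.16 CPM) fell.

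Of 16 tested BCL2 family genes 6 rose and 4 fell. BCL2L1, which encodes the survival factor BCL-XL, went from 96.8 ± 0.874 to 142 ± 4.4 CPM, and BOK (0.37) and BCL2L13 (0.20) rose. The survival gene MCL1 went from 561 ± 17.6 to 433 ± 5.73 CPM, and the BH3-only genes BMF (log2 −1.73, SE 0.15) and BCL2L11 (log2 −0.36, SE 0.07) fell. Genes that promote death and genes that oppose it thus stood on both sides.

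Most tested NF-kB genes rose. The pathway turns cytokine signals into transcription through RELA, NFKB1 and their relatives, and it induces its own inhibitors. Of 22 tested subunits and feedback genes 16 rose, 1 fell and 5 did not pass, with a median of 0.26. TNFAIP3, the ubiquitin-editing inhibitor A20, was at 61, 58.7 and 63.2 CPM in the siNC libraries and 118, 113 and 117 CPM in the siANLN libraries (log2 0.93, SE 0.04, edgeR Benjamini-Hochberg adjusted p = 3.33e-63). The adaptor genes TRAF1 (from 17.4 ± 0.939 to 37.9 ± 1.11 CPM) and TRAF3 (from 38.2 ± 1.75 to 72 ± 1.64 CPM), NFKB2 (from 143 ± 3.66 to 208 ± 3.13 CPM) and the adhesion molecule ICAM1 (from 79 ± 4.06 to 107 ± 2.7 CPM) rose, each without overlap. NFKBIZ, which encodes the nuclear modulator I-kappa-B zeta, fell from 66 ± 2.46 to 47.2 ± 4.12 CPM (log2 −0.48, SE 0.05). IKBKB (−0.14), IKBKE (0.12), REL (−0.12), TNFAIP2 (0.07) and TNFRSF9 (0.20) did not pass the test.

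The interferon side of innate signalling was lower. Of 27 tested interferon-stimulated genes of the 2-5A, MX, IFIT and IFI6 group 0 rose and 19 fell (70.4%), with a median of −0.37. By edgeR without adjustment, 0 were higher at p under 0.05, and DESeq2 called 0 higher. OASL, a relative of the 2-5A synthetases, was at 863, 874 and 895 CPM in the siNC libraries and 563, 589 and 566 CPM in the siANLN libraries (log2 −0.62, SE 0.02, edgeR Benjamini-Hochberg adjusted p = 8.30e-89). IFIT3, which binds foreign RNA with its relatives, was at 952, 953 and 972 CPM in siNC and 743, 739.9 and 740.1 CPM in siANLN (log2 −0.37, SE 0.02), and no library crossed to the other group in either gene. DDX60 (log2 −0.54, SE 0.03), PARP14 (log2 −0.69, SE 0.04) and RSAD2, the antiviral protein viperin (log2 −0.56, SE 0.03), fell as well. Chosen after its value was seen, IFIT1, of the same cluster as IFIT3, changed by −0.02 from 526 ± 8.42 to 520.1 ± 13.6 CPM and did not pass the test.

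Of 19 tested genes of type I interferon signalling 0 rose, 12 fell and 7 did not pass (median −0.16). By edgeR without adjustment 1 was higher at p under 0.05, and DESeq2 called 0 higher. IRF1, a transcription factor of interferon responses, was at 227, 232 and 226 CPM in the siNC libraries and 129, 130.5 and 129 CPM in the siANLN libraries (log2 −0.82, SE 0.03, edgeR Benjamini-Hochberg adjusted p = 1.91e-77), with no overlap. TLR3, a receptor for double-stranded RNA, went from 16.8 ± 1.16 to 7.41 ± 0.318 CPM (log2 −1.18, SE 0.11), STAT2, a subunit of the factor ISGF3, from 124 ± 5.06 to 93.7 ± 3.9 CPM, the RNA sensor RIGI from 221 ± 3.48 to 184 ± 2.15 CPM and the adaptor MAVS from 182 ± 5.09 to 152 ± 4.13 CPM. In antigen presentation 6 of 11 tested genes fell and 2 rose. TAPBPL, a peptide editor of MHC class I, was at 41, 37.2 and 41.6 CPM in siNC and 10.5, 12.9 and 13.2 CPM in siANLN (log2 −1.71, SE 0.08), and the transactivator gene NLRC5 (−0.44) and the trimming peptidase gene ERAP2 (−0.52) also fell. B2M, the light chain (−0.26), and the immunoproteasome subunit PSMB10 (−0.84) fell, but their control levels were more than 4-fold apart between the tables of the 2 times. HLA-F (−0.50) and TAP2 (−0.32) did not pass, and the 2 that rose, the chaperones CALR (0.43) and PDIA3 (0.12), serve glycoprotein folding at large.

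**Figure D3:**
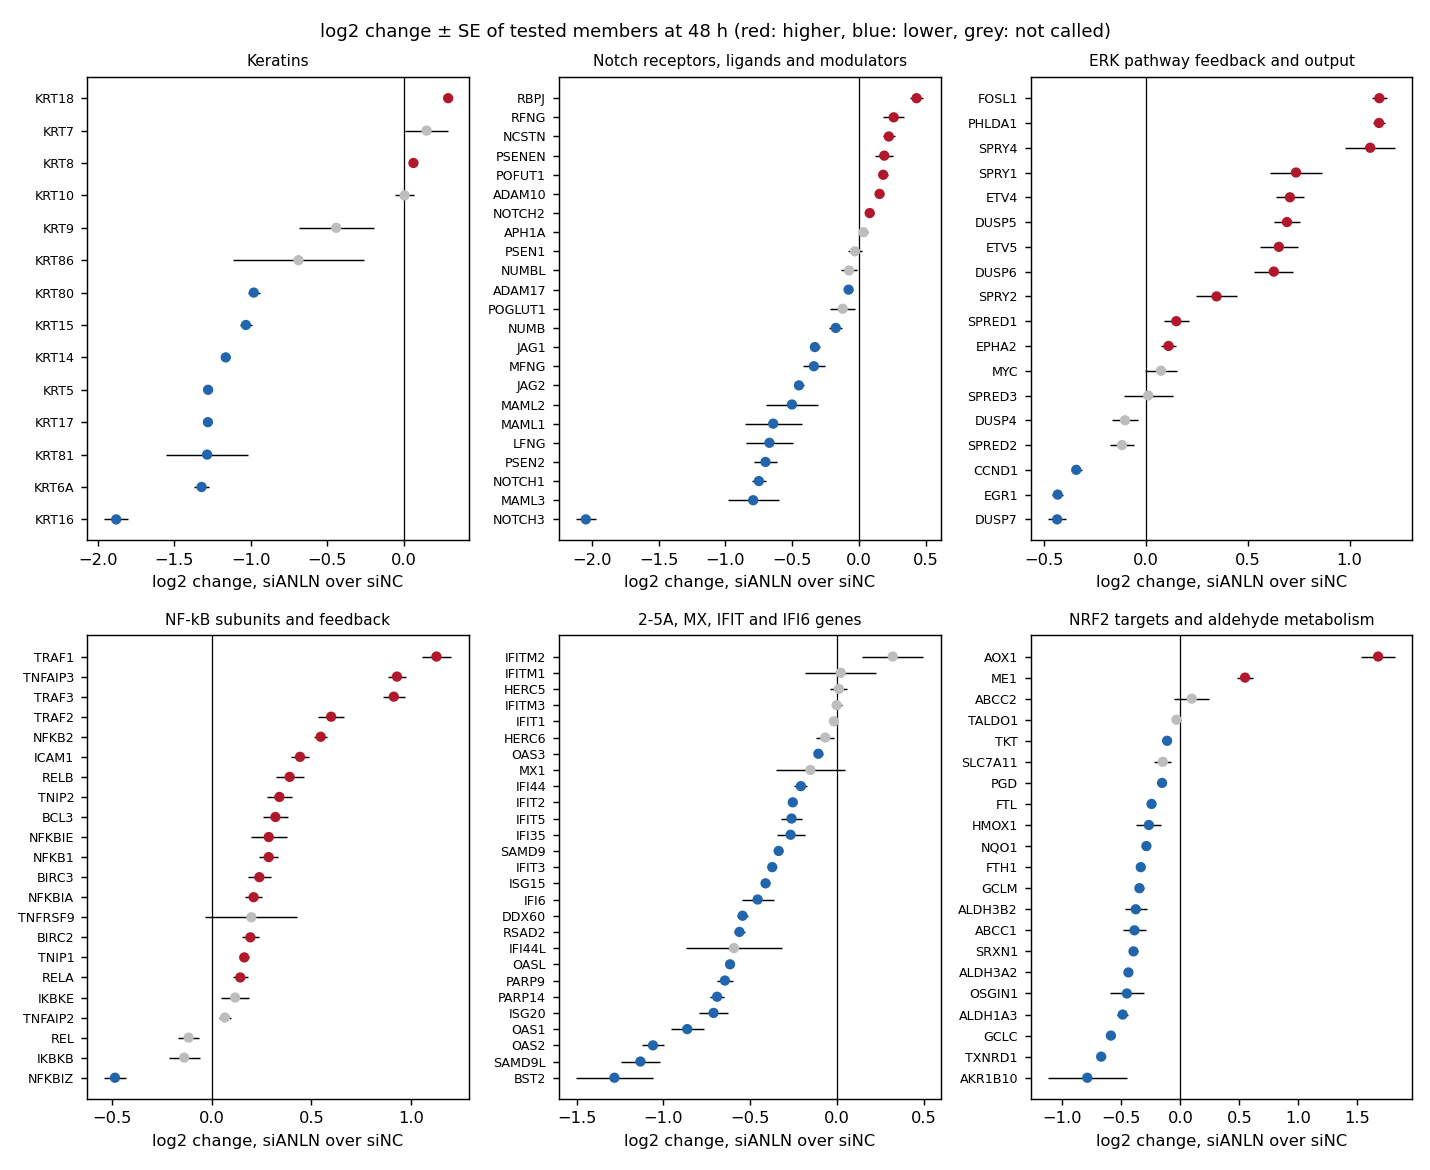
Log2 change (horizontal axes) with SE for tested members of 6 gene groups at 48 h, red for higher, blue for lower and grey for not called. Of the 22 genes in the group of NRF2 targets and aldehyde metabolism 21 are drawn. Most NF-kB genes lie right of 0. Most interferon-stimulated genes and most NRF2 target and aldehyde metabolism genes lie left of it, with AOX1 and ME1 among the exceptions. KRT16 lies lowest of the keratins at −1.88.

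Because most called members of the NF-kB group rose and those of the interferon group fell, short promoter stretches are shown for called members of these groups and of the chemokines that hold the group's motif, picked by the smallest p. The sequences are from RefSeq (GRCh38.p14), 60 bases each, 5′ to 3′ toward the gene, and 250 bases before the annotated start were searched on both strands. Capitals mark GGNNNTTCC, letters shared by many kappa-B sites, in the first 6 and GAAA, any 2 bases and GAAA again, letters of the interferon-stimulated response element, in the last 6, either as written or as the reverse complement, at the match nearest the start. NFKB1, ISG15, SAMD9 and ISG20 were named after their values were seen.

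CXCL8 (chr4:73740453-73740512, plus strand): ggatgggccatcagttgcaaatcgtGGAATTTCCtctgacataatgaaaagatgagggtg
TNFAIP3 (chr6:137867179-137867238, plus strand): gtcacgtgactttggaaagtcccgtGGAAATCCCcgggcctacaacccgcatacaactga
TRAF3 (chr14:102777389-102777448, plus strand): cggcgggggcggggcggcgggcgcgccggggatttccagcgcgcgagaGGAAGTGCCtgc
ICAM1 (chr19:10270909-10270968, plus strand): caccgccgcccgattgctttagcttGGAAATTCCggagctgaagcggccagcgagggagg
NFKBIZ (chr3:101827743-101827802, plus strand): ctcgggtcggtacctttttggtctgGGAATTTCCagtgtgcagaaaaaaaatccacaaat
NFKB1 (chr4:102501286-102501345, plus strand): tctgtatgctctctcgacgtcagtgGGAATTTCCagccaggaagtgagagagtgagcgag
DDX60 (chr4:168318771-168318830, minus strand): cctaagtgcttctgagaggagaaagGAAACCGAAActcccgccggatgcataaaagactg
PARP14 (chr3:122680779-122680838, plus strand): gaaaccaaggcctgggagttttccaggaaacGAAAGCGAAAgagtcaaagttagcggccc
IFIT3 (chr10:89327850-89327909, plus strand): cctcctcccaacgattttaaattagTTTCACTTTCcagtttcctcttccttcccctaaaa
ISG15 (chr1:1013365-1013424, plus strand): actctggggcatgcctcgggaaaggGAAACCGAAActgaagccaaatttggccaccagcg
SAMD9 (chr7:93118081-93118140, minus strand): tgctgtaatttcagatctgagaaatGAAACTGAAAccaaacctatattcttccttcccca
ISG20 (chr15:88638922-88638981, plus strand): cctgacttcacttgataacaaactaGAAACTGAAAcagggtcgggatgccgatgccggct

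The kappa-B letters were in 11 of the 19 NF-kB list promoters matched (57.9%) and in all 4 matched chemokine promoters, those of CXCL11, which fell, and CXCL10 included, against 17.1% of 27305 promoters and 1926 of the 9610 promoters of tested protein-coding genes. They were also in 26.1% of 23 interferon-stimulated and 27.3% of 11 ERK list promoters. The interferon letters were in 16 of 23 matched interferon-stimulated promoters (69.6%), against 3.07% of all and 2.27% of those of tested protein-coding genes. NFKBIZ, the NF-kB gene that fell, holds the same 9 letters GGAATTTCC as CXCL8 and NFKB1, which rose. IFIT1 and IFIT3 also both hold the interferon letters, and of the pair IFIT3 passed the test. Some promoters hold both motifs, whose bases can overlap, and each was counted on its own. A match describes the sequence only. The shares of the lists count all tested members matched, called or not. They follow from how the lists were chosen, not from the changes at 48 h.

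Notch, a receptor family whose cleaved intracellular part switches on genes with RBPJ and drives squamous differentiation, had more falls than rises among its receptors, ligands and modulators. Of 23 tested receptors, ligands and modulators 7 rose and 12 fell (median −0.12). NOTCH3 was at 55.7, 53.4 and 55.7 CPM in the siNC libraries and 14, 12.8 and 13 CPM in the siANLN libraries (log2 −2.04, SE 0.07, edgeR Benjamini-Hochberg adjusted p = 1.70e-91), and NOTCH1 at 70.5, 65.3 and 72.3 CPM in siNC and 41.8, 40.7 and 41.1 CPM in siANLN (log2 −0.75, SE 0.05). Neither overlapped between the groups. The ligand genes JAG1 (from 153 ± 3.64 to 121 ± 2.43 CPM) and JAG2 (from 137 ± 3.82 to 100.2 ± 3.35 CPM) and PSEN2, a catalytic subunit of gamma-secretase (log2 −0.70, SE 0.09), fell. RBPJ, the DNA-binding partner (log2 0.43, SE 0.05), NCSTN (0.22) of gamma-secretase and POFUT1 (0.18), which fucosylates Notch, rose. Per length, the deposited FPKM of NOTCH3 averaged 5.89 FPKM in siNC and 1.39 FPKM in siANLN, those of NOTCH1 5.59 FPKM in siNC and 3.24 FPKM in siANLN, and those of NOTCH2, named after its value was seen, 13 FPKM in siNC and 13.4 FPKM in siANLN.

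Of 8 tested Notch target genes HES2 (from 36.3 ± 1.41 to 14.8 ± 1.35 CPM, log2 −1.30, SE 0.08), HES1 (from 50.5 ± 0.664 to 34.9 ± 0.473 CPM, log2 −0.53, SE 0.06) and CDKN1A fell, and GATA3 rose (log2 0.34, SE 0.08). HES4 (0.05), HES7 (from 31.1 to 31 CPM), HEY1 (0.52) and NRARP (−0.10) did not pass the test.

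Among 24 tested Wnt genes 3 rose and 12 fell (median −0.09). The ligand genes WNT7B (from 22.7 ± 1.25 to 35.8 ± 1.55 CPM) and WNT5B (from 16.2 ± 1.11 to 25.1 ± 2.78 CPM) rose, as did ROR1 (0.26), a call lost in DESeq2, in limma-trend, under library totals and without siNC replicate 3 or siANLN replicate 1 or 3. The receptor genes FZD1 (from 32.6 ± 1.31 to 18.9 ± 2.06 CPM) and FZD4 (−0.34), the inhibitor DKK1 (log2 −0.41, SE 0.05) and the ligand genes WNT10A (−0.44) and WNT4 (−1.02) fell, with WNT4 uncertain for its control level. In the guidance families, 10 of 21 semaphorins, plexins and neuropilins fell and 3 rose. SEMA3F went from 30.9 ± 1.59 to 13.9 ± 1.1 CPM (log2 −1.14, SE 0.08), PLXNA2 from 126 ± 5.91 to 88.1 ± 4.26 CPM, PLXNA3 from 11.8 ± 1.17 to 7.01 ± 0.131 CPM, PLXND1 from 22.1 ± 1.99 to 14.8 ± 1.19 CPM and PLXNB1 from 133 ± 2.71 to 108 ± 4.23 CPM. PLXNA1 stood apart and rose from 138 ± 1.24 to 221 ± 1.9 CPM (log2 0.68, SE 0.03), beside SEMA4A (0.24) and SEMA4B (0.24). Of 10 ephrins and Eph receptors 4 rose, among them EFNB2 (0.35) and EFNA3 (0.33), and 3 fell, EFNB1 (−0.43), EPHB3 (−0.41) and EPHB4 (−0.23).

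Among keratins, the intermediate filaments of epithelia, those of basal and stressed squamous cells were lower. Of 14 tested keratins (31 listed) 8 fell, 2 rose and 4 did not pass, with a median of −1.005. KRT5 was at 3004, 2942 and 3086 CPM in the siNC libraries and 1221, 1257 and 1247 CPM in the siANLN libraries, so that 41.2% remained (log2 −1.28, SE 0.02, edgeR Benjamini-Hochberg adjusted p = 3.25e-205). Its basal partner KRT14 was at 619.6, 582 and 603 CPM in siNC and 260.4, 274 and 271 CPM in siANLN (log2 −1.16, SE 0.03), and the groups lay apart in both. KRT15 (from 149 ± 4.77 to 72.8 ± 2.07 CPM), also of basal cells, and the stress keratins KRT17 (from 539 ± 16.9 to 222 ± 10.6 CPM), KRT6A (from 96 ± 5.49 to 38.4 ± 1.78 CPM) and KRT16 (from 45.2 ± 1.66 to 12.3 ± 1.67 CPM, log2 −1.88, SE 0.08) fell. The simple epithelial keratin KRT18 rose from 839.7 ± 11 to 1027 ± 21.3 CPM (log2 0.29, SE 0.02). Its partner KRT8 changed by 0.06, a call lost with scaling by library totals alone, in limma-trend and without siNC replicate 2. KRT7 (0.15), KRT9 (−0.44), KRT10 (0.01) and KRT86 (−0.69) did not pass. KRT6A, KRT14, KRT16 and KRT17 share nearly identical stretches with relatives or pseudogenes, so reads may be split between copies and these values are uncertain.

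Per length, in the deposited FPKM, the order of the leading keratins differed between the groups. KRT5 averaged 736 FPKM in siNC and 296 FPKM in siANLN, KRT14 269 FPKM in siNC and 117 FPKM in siANLN, KRT8 275 FPKM in siNC and 281 FPKM in siANLN and KRT18 276 FPKM in siNC and 329.9 FPKM in siANLN. KRT5 thus led in siNC and KRT18 in siANLN, where KRT5 and KRT8 followed.

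Most genes of the cornified envelope and barrier had too few counts, with 11 of 36 listed genes tested, and 6 of those fell and 2 rose. The protease genes KLK10 (from 22 ± 0.859 to 10.3 ± 1.75 CPM) and KLK5 (from 116 ± 6.11 to 89.5 ± 2.49 CPM), the envelope scaffold PPL (from 299 ± 2.11 to 188 ± 2.62 CPM), ECM1 (−0.64) and CYSRT1 (−0.49) fell. EMP1 (log2 0.29, SE 0.03) and filaggrin (FLG, 0.11) rose, the latter a call lost in DESeq2, in limma-trend, under library totals and without siNC replicate 1 or siANLN replicate 1 or 2. Reads of KLK10 cannot be told apart from those of ENSG00000268739 on the opposite strand. Of 11 tested S100 genes, which encode calcium-binding proteins, 3 rose and 4 fell: S100A9 went from 1.69 ± 0.116 to 3.75 ± 0.382 CPM, S100A10 from 339 ± 18.9 to 256 ± 3.49 CPM and S100A2 from 203 ± 5.67 to 152 ± 4.61 CPM. Clade B serpins, protease inhibitors, had SERPINB2 (from 4.83 ± 0.301 to 10.2 ± 1.54 CPM) and SERPINB7 (0.51) higher and SERPINB1, SERPINB5 and SERPINB13 lower (−0.16, −0.17 and −0.95), of 7 tested. SERPINB1 was not called in DESeq2 or without siNC replicate 2 or siANLN replicate 2 or 3. Of 3 tested membrane mucins and CEACAMs CEACAM1 fell (−0.59). Among 13 tight junction genes CLDN4, a claudin, went from 466 ± 6.96 to 369 ± 14.8 CPM, CGN changed by −0.26, CLDN9 by −0.80 and TJP3 by −1.32, and CLDN12 (0.26) and F11R (0.16) rose. TJP3 and SERPINB13 had control levels more than 4-fold apart between the tables.

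Transcription factors of the squamous lineage were divided, with 7 of 33 higher and 12 lower (median −0.03). TP63, the master regulator of squamous cells, was at 272, 284 and 278 CPM in the siNC libraries and 219, 208 and 194 CPM in the siANLN libraries (log2 −0.43, SE 0.03, edgeR Benjamini-Hochberg adjusted p = 6.08e-35), without overlap. Besides TP63, the falls with the smallest p were those of TFAP2A (from 148 ± 5.27 to 103 ± 2.02 CPM), ELF3 (from 65.8 ± 2.32 to 38.7 ± 1.21 CPM), KLF4 (from 139 ± 3.8 to 105 ± 2.78 CPM) and BNC1 (from 127 ± 1.06 to 94.8 ± 1.33 CPM). Some called falls from lower levels were larger on the log2 scale. SOX9, a factor of progenitor and glandular cells, went up from 30.3 ± 3.06 to 63.3 ± 0.398 CPM (log2 1.06, SE 0.06), and EHF (from 11.2 ± 0.577 to 21.4 ± 0.665 CPM) and KLF7 (0.37) rose. Of 10 tested mesenchymal genes 4 rose and 2 fell. AXL (from 412 ± 9.92 to 551 ± 3.46 CPM) and TNC (log2 0.31, SE 0.04) were the abundant ones that rose, while ZEB1 (0.65) and VIM (0.57) were at 3.04 to 4.78 CPM and 4.47 to 6.64 CPM, and their calls were lost in limma-trend on FPKM. FN1, fibronectin, fell (log2 −0.25, SE 0.04), as did S100A4 from 1.35 ± 0.159 to 0.468 ± 0.0887 CPM, and SNAI2 (0.08), TWIST1 (0.17), ACTA2 (0.38) and TAGLN (0.06) did not pass.

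Of 15 tested genes of matrix proteolysis and plasminogen activation 8 rose and 4 fell (median 0.29). THBS1, the matricellular protein thrombospondin 1, was at 1600.2, 1603 and 1602 CPM in the siNC libraries and 2743, 2649 and 2687 CPM in the siANLN libraries (log2 0.75, SE 0.02, edgeR Benjamini-Hochberg adjusted p = 7.19e-133), the groups well apart. SERPINE2 (0.41) and the membrane protease gene MMP14 (from 305 ± 7.76 to 373 ± 8.49 CPM) rose. PLAU, the urokinase that activates plasminogen, fell (log2 −0.23, SE 0.03), with MMP2 (−0.19) and MMP15 (−0.35). TIMP1 (−0.04), TIMP2 (0.04) and MMP13 (0.66) did not pass.

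Collagens and laminins split within the basement membrane. Of 14 collagens 6 rose and 6 fell: the hemidesmosome collagen COL17A1 went from 485 ± 8.79 to 702 ± 13.7 CPM and COL4A1 from 78.3 ± 4.03 to 118 ± 0.888 CPM, upward, and the anchoring fibril collagen COL7A1 from 193 ± 11.3 to 135 ± 7.49 CPM, COL4A5 from 40.8 ± 2.91 to 30.3 ± 1.62 CPM and COL1A1 from 19.2 ± 0.697 to 10.3 ± 1.19 CPM, downward. The laminin chain LAMB3 rose slightly (0.10), a call limma-trend did not make, and LAMA5 (from 1102 ± 13.1 to 821 ± 16.9 CPM) and LAMB2 (−0.30) fell. LAMA3, another chain, went from 226 ± 5.28 to 226 ± 5.41 CPM and did not pass. Of 13 integrins 4 rose, ITGB1 most (from 298 ± 2.42 to 417 ± 3.67 CPM, log2 0.49, SE 0.03), then ITGA2 (0.32), ITGB8 (0.25) and ITGA3 (0.21), and ITGAV (−0.25) and ITGB4 (−0.11) fell.

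Targets and regulators of YAP and TAZ, the coactivators that respond to tension and cell density, were more often higher, with 11 of 20 up and 4 down (median 0.30). CCN1, which encodes the matricellular protein CYR61, was at 439, 447 and 453 CPM in siNC and 697, 689 and 708 CPM in siANLN (log2 0.65, SE 0.02). WWC1, an upstream Hippo scaffold, went from 333 ± 4.81 to 483 ± 6.09 CPM, tissue factor (F3) from 449.9 ± 8.62 to 604 ± 4.91 CPM and AMOTL1 from 208 ± 0.619 to 271 ± 10.6 CPM. AJUBA (from 289.7 ± 7.75 to 211 ± 3.27 CPM), AMOTL2 (−0.19) and PTPN14 (−0.09) fell, and WWTR1, which encodes TAZ (0.06), LATS1 (−0.01), CRIM1 (0.01), TEAD3 (−0.08) and ANKRD1 (0.40) did not pass.

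Anillin binds the parts of the contractile ring, of which most genes did not pass the test or changed by less than 2-fold. Of 25 tested contractile ring genes, ANLN included, 8 rose, 4 fell and 13 did not pass. The heavy chain gene MYH9 was at 1791, 1765 and 1804 CPM in the siNC libraries and 2639.7, 2677 and 2717 CPM in the siANLN libraries (log2 0.58, SE 0.02, edgeR Benjamini-Hochberg adjusted p = 6.84e-103), while MYH14, another heavy chain, fell from 30.3 ± 2.28 to 19.1 ± 1.35 CPM (log2 −0.66, SE 0.08). The formin genes DIAPH1 (log2 0.27, SE 0.02) and DIAPH3 (log2 0.35, SE 0.04) and RHOC (0.23) rose, and CD2AP (−0.13) fell. PRC1, a midzone microtubule protein, rose (0.33), with a control level more than 4-fold from that in the 24 h table. Of 8 septins SEPTIN7 (0.19) and SEPTIN9 (0.15), the filament partners of anillin, rose slightly and SEPTIN8 changed by −0.11, a call lost in DESeq2 and without any 1 of siNC replicates 2 and 3 and siANLN replicates 1 and 3, while SEPTIN2 (0.04), SEPTIN11 (−0.04) and SEPTIN10 (0.01) did not pass.

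Of 25 tropomyosins, actins and crosslinkers 10 rose and 7 fell, and TPM4 stood out. It was at 216, 219 and 212 CPM in the siNC libraries and 696, 679.7 and 699.9 CPM in the siANLN libraries, a 3.2-fold rise (log2 1.68, SE 0.03, edgeR Benjamini-Hochberg adjusted p = 3.76e-201). ACTB, beta-actin (from 2990.3 ± 22.6 to 3800.1 ± 14.7 CPM), TPM3 (log2 0.23, SE 0.02) and the bundler FSCN1 (log2 0.27, SE 0.02) rose by far less. ACTG1 (1.05 CPM in siNC and 0.826 CPM in siANLN) and ACTN4 (0.913 and 0.856 CPM) were named after their values were seen. Both lay near 1 CPM and did not pass, so their values show little about a change. TPM2 and ZYX had too few counts to be tested. VCL, vinculin, which ties actin to adhesions, was at 316, 311 and 324 CPM in siNC and 179.6, 184 and 182 CPM in siANLN, without overlap (log2 −0.80, SE 0.03), and LIMA1 (log2 −0.38, SE 0.03) and CFL1, cofilin (−0.14), fell too. Per length, in deposited FPKM, TPM4 averaged 17.6 FPKM in siNC and 55.1 FPKM in siANLN and TPM3 42.8 FPKM in siNC and 49 FPKM in siANLN, so their order differed between the groups.

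The transcription machinery itself changed modestly. Of 12 RNA polymerase II subunits 6 rose and 1 fell (median 0.14). POLR2D, a subunit of the stalk of the enzyme, was at 45.2, 43.3 and 46.8 CPM in the siNC libraries and 79, 73.6 and 82 CPM in the siANLN libraries (log2 0.80, SE 0.05), and POLR2C (from 87.3 ± 0.907 to 125 ± 4.5 CPM), POLR2E (0.23), POLR2B (0.18) and POLR2F (0.19, not called in limma-trend or without siNC replicate 1) rose. POLR2A, the largest subunit, was at 31.2, 35.2 and 40.6 CPM in siNC and 30.6, 30 and 30.5 CPM in siANLN (log2 −0.23, SE 0.07), but its control level was 0.0523 times that in the 24 h table, and limma-trend did not call it, nor did edgeR without siNC replicate 3. The siANLN libraries of POLR2A nearly agreed while its siNC libraries spread. Of 31 initiation factors 7 rose, GTF2F2 most (from 43.9 ± 1.19 to 64.7 ± 1.6 CPM), then GTF2H3 (0.29), TAF10 (0.28), TAF11 (0.24) and TAF7 (0.19) among others, and 4 fell, among them TAF9B (−0.38), TAF8 (−0.23) and GTF2A1 (−0.18). TAF11 was not called in DESeq2 or without siANLN replicate 3, TAF8 not in limma-trend, and TAF10 had a control level 5.82 times that in the 24 h table.

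Polycomb subunits, which keep genes silent, had 6 of 24 higher and 6 lower. KDM2B, a CpG island-binding subunit, went from 18.8 ± 1.7 to 37.3 ± 0.0451 CPM, PCGF6 from 21.6 ± 0.264 to 32.4 ± 2.4 CPM and JARID2 from 34.7 ± 4.01 to 49.4 ± 5.05 CPM, upward, and CBX2, which reads methylated histone H3, from 26 ± 0.451 to 12.9 ± 0.0766 CPM, PCGF5 from 98.1 ± 2.41 to 72.4 ± 1.22 CPM and PHC3 from 88.3 ± 1.11 to 70.1 ± 2.81 CPM, downward. Among 29 tested acetyltransferases, deacetylases and bromodomain genes 8 rose and 7 fell. HDAC9 (from 33.8 ± 0.943 to 53.6 ± 1.24 CPM) and HDAC1 (log2 0.26, SE 0.03) rose, and the coactivator genes EP300 (from 102 ± 6.09 to 81.9 ± 3.95 CPM) and CREBBP (from 107 ± 3.9 to 89.5 ± 2.91 CPM) fell.

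Nucleolar genes of ribosome production were higher in 14 of 30 and lower in 1 (median 0.09). NOLC1, which encodes the nucleolar phosphoprotein Nopp140, was at 125, 125 and 126 CPM in the siNC libraries and 415, 407 and 396 CPM in the siANLN libraries (log2 1.70, SE 0.03, edgeR Benjamini-Hochberg adjusted p = 3.30e-179). TCOF1, treacle, its relative in rDNA transcription, went from 263 ± 4.61 to 451 ± 4.23 CPM, PES1 from 111 ± 1.79 to 154 ± 3.68 CPM, the pseudouridine synthase gene DKC1 from 150.4 ± 6.24 to 200.3 ± 5.49 CPM and POLR1B (0.27) of RNA polymerase I rose as well. NOP2 changed by −0.10, but its control level differed 70.8 times between the tables and its call was lost in DESeq2 and without replicate 2 of either arm.

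In the endoplasmic reticulum 16 of 28 genes of glycoprotein folding rose and 3 fell (median 0.09). GANAB, the catalytic subunit of glucosidase II, was at 183, 181 and 186 CPM in the siNC libraries and 533, 525 and 524 CPM in the siANLN libraries (log2 1.52, SE 0.03, edgeR Benjamini-Hochberg adjusted p = 1.13e-178). P4HB, a disulphide isomerase (from 438 ± 9.31 to 629 ± 18.9 CPM), the lectin chaperone gene CALR (from 345 ± 0.345 to 464 ± 2.47 CPM), DDOST of the oligosaccharyltransferase (0.34) and HSPA5, the chaperone BiP (log2 0.30, SE 0.02), rose. ERGIC1, a cargo protein between the reticulum and the Golgi, was at 144, 152 and 153 CPM in the siNC libraries and 48, 55.8 and 52.7 CPM in the siANLN libraries (log2 −1.52, SE 0.04, edgeR Benjamini-Hochberg adjusted p = 5.93e-117), the reverse of GANAB and equally without overlap. EDEM2 changed by −0.23, and calnexin (CANX), the membrane-bound partner of CALR, by −0.68, with a control level only 0.0491 times that in the 24 h table.

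NRF2 is the factor that drives antioxidant enzymes and is often active in this tumour. Its targets were listed together with genes of aldehyde metabolism. Of 22 tested genes of this mixed group 17 were lower and 2 higher (median −0.34). TXNRD1, thioredoxin reductase, was at 388, 382 and 385 CPM in the siNC libraries and 245, 241 and 240.1 CPM in the siANLN libraries (log2 −0.67, SE 0.03, edgeR Benjamini-Hochberg adjusted p = 1.35e-76). Its groups did not overlap. GCLC, of glutathione synthesis (from 145 ± 3.8 to 96.1 ± 1.25 CPM), the ferritin chain FTH1 (from 1211 ± 13 to 960.1 ± 26.8 CPM) and the aldehyde dehydrogenase gene ALDH3A2 (from 183 ± 2.53 to 135 ± 2.91 CPM) fell. AOX1, aldehyde oxidase, rose from 3.72 ± 0.787 to 11.9 ± 1.67 CPM and ME1, malic enzyme, from 23.5 ± 1.59 to 34.3 ± 1.58 CPM, and ABCC2 (0.10), SLC7A11 (−0.15) and TALDO1 (−0.03) did not pass.

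Of 17 glucose, lactate and amino acid transporters 8 rose and 6 fell. SLC2A3, the glucose transporter GLUT3, was at 136, 138 and 134 CPM in siNC and 327, 307 and 311 CPM in siANLN (log2 1.21, SE 0.03), while SLC2A1, GLUT1, changed by 0.05 and did not pass. The glutamine carrier genes SLC1A5 (0.30) and SLC38A2 (0.23) and the lactate exporter SLC16A3 (0.21) rose. Both chains of the leucine exchanger fell, SLC7A5 from 2764 ± 39.7 to 2009 ± 28.5 CPM and SLC3A2 from 798 ± 8.69 to 628 ± 5.11 CPM. Of 15 tested genes of arachidonic acid metabolism 2 rose and 6 fell. PTGS2, the inducible cyclooxygenase, rose from 3.81 ± 0.21 to 8.14 ± 1.26 CPM and PTGES3 (0.18) rose, whereas PTGES, the inducible prostaglandin E synthase, fell from 81 ± 2.88 to 56.8 ± 0.928 CPM, with CYP4F11 (−0.50) and CYP4F12 (from 1.35 ± 0.466 to 0.388 ± 0.106 CPM). Of 14 tested genes listed as aquaporins and epithelial ion channels, not all of which encode channels, 7 fell and 1, KCNK6, rose (0.27). AQP3, a water and glycerol channel, was at 7.28, 8.66 and 11 CPM in siNC and 2.04, 3.31 and 1.96 CPM in siANLN, without overlap (log2 −1.88, SE 0.17), and TRPV6 (from 7.16 ± 0.729 to 3.79 ± 0.996 CPM), SCNN1A (−0.28) and ATP1B1 (−0.17) fell, as did CLCA2 (−1.44), uncertain for its control level.

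**Figure D4:**
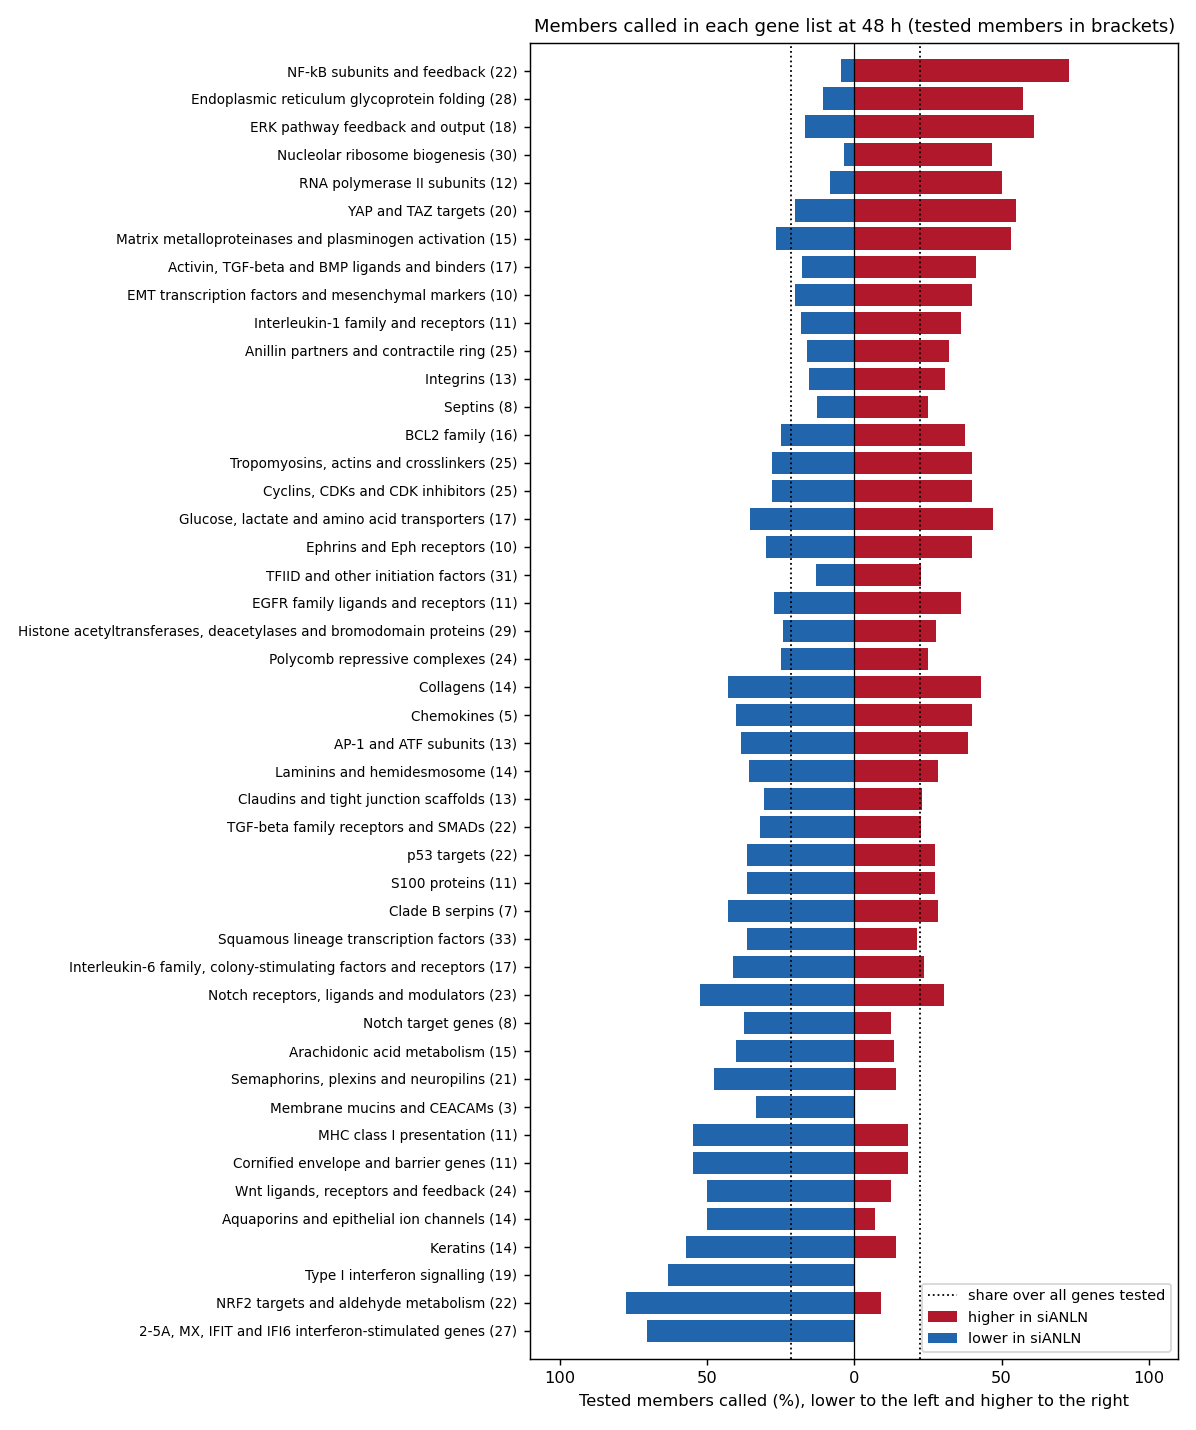
Share of tested members called lower (blue, to the left) and higher (red, to the right) in 46 gene groups at 48 h, in percent, with the tested number in brackets and dotted lines for the shares over all genes tested (21.3% and 22.2%). NF-kB genes lie at the top, and interferon-stimulated genes and the group of NRF2 targets and aldehyde metabolism at the bottom.

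Over the 46 groups, 1060 genes were listed and 778 tested, of which 235 rose (30.2%) and 255 fell (32.8%), with a median of −0.017. Genes that were not tested had too few counts or were not in the table.

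Among long non-coding RNA genes averaging 5 CPM or more, the 5 largest rises were those of LUCAT1 (from 2.9 ± 0.211 to 8.99 ± 0.226 CPM), THBS1-IT1 (from 2.7 ± 0.524 to 8.39 ± 0.716 CPM), PHLDA1-AS1 (from 59.5 ± 0.974 to 150.2 ± 2.14 CPM), ENSG00000254680 (1.46) and ENSG00000258757 (1.31). Each lies over another annotated gene. THBS1-IT1 lies within THBS1 on the same strand, PHLDA1-AS1 is opposite PHLDA1, ENSG00000254680 is opposite MICAL2 and ENSG00000258757 opposite ERO1A. The largest falls were in 5 unnamed genes, from −1.22 (ENSG00000239775, over DBNL and PGAM2) to −1.03 (ENSG00000263165, opposite ANKFY1), and 2 of them also lie opposite genes named above, KLK10 and ANKFY1. Reads of these pairs cannot be told apart without a strand setting, which is not given in the sources used here.

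Features that the choice of libraries did not use also divided the called genes. Among 12119 tested protein-coding genes 26.1% rose and 24.9% fell. The share that rose grew with the level, from 2.44% of 205 genes at a mean of up to 1 CPM to 44.2% of 2555 genes above 100 CPM. The share that fell stayed between 18.0% and 25.8%. From the lowest to the highest level the median log2 change went from −0.236 to 0.048. Up to 1 CPM 4 called genes were at least 2-fold higher and 32 lower, at 1 to 5 CPM 16 and 106, and above 100 CPM 15 and 10. Per library 27244 to 27652 genes had reads in siNC and 26328 to 26783 in siANLN. A change of a given size passes the test more easily at a higher count, in either direction. Why the share that rose and the share that fell ran differently with the level was not tested. Of protein-coding genes at 5 CPM or more, the shortest 20% by summed exon length had 31.3% higher and 18.5% lower, and the longest 20% 25.7% higher and 32.4% lower, with median levels of 34.6 and 67 CPM.

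**Figure D5:**
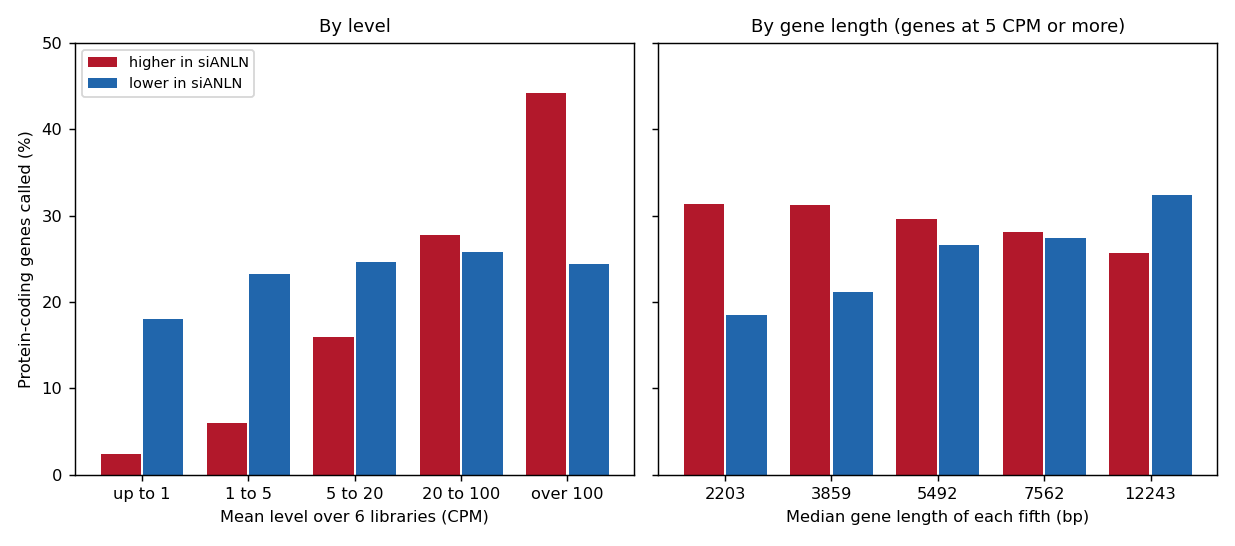
Share of protein-coding genes called higher (red) and lower (blue) in siANLN at 48 h, in percent, by mean level in CPM (left) and, for genes at 5 CPM or more, by gene length in base pairs, in 5 bins of equal size (right). The share higher climbs with level to 44.2%, and the share lower climbs with length from 18.5% to 32.4%.

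By chromosome, protein-coding genes of chromosome 19 were higher in 35.5% and lower in 17.5% of 904, against 25.4% and 25.5% of 11215 elsewhere. At 2-fold or more the order on chromosome 19 was the other way, with 12 genes higher and 23 lower, and elsewhere 72 were higher and 181 lower. Zinc finger genes named ZNF, many of which lie in clusters there and encode repressors of the KRAB type, were among them. On chromosome 19, 68 of 150 ZNF genes rose (45.3%) and 9 fell (6%), and on other chromosomes 69 of 206 rose (33.5%) and 38 fell (18.4%). Without ZNF genes chromosome 19 had 253 of 754 genes higher (33.6%) and 149 lower (19.8%). Its median levels were lower than elsewhere, 28.7 CPM for the chromosome against 40 CPM, and its genes shorter, 4033 against 5462 base pairs at the median.

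Values at 24 h come from a separately made table and are given beside those at 48 h with no comparison between the times. ANLN changed by −3.11 (SE 0.04) at 24 h. TPM4 changed by 1.53 (SE 0.04), NOLC1 by 1.15 (SE 0.04), GANAB by 1.17 (SE 0.04), G3BP2 by 1.02 (SE 0.04), ERGIC1 by −1.09 (SE 0.05) and CBX2 by −0.93 (SE 0.08), and each of these was called at 24 h as well. INHBA changed by 0.69 (SE 0.14), NOTCH3 by −0.55 (SE 0.11), KRT5 by −0.41 (SE 0.03), CDK6 by 0.51 (SE 0.04) and TXNRD1 by −0.51 (SE 0.04), also called. CXCL8 changed by 0.11 (SE 0.10), FOSL1 by −0.04 (SE 0.04), IL1A by 0.10 (SE 0.06), TNFAIP3 by 0.10 (SE 0.05), OASL by −0.08 (SE 0.03), IFIT3 by −0.02 (SE 0.03) and TP63 by −0.03 (SE 0.04), none of them called at 24 h. Whether these changes differ between the times was not tested.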

How the data were processed

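Per the labels, Trizol was used to extract total RNA, and paired reads of 150 bases were taken from poly(A) libraries. The authors deposited, for each time, 1 table of read counts (whole numbers) and 1 of FPKM values, which are counts scaled by gene length and library total. Per the submitters' processing notes, cutadapt 1.18, STAR 2.7.3a, featureCounts, DESeq2 1.44.0 and GRCh38 were used. The annotation release and strand setting are not given in the sources used here. For 3830 of the 16241 tested genes found in both tables, control levels did not lie within 4-fold of each other, so named genes of this kind are marked as uncertain.

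Lines that repeated another exactly (243 at 48 h) were dropped. Genes kept by filterByExpr were tested with edgeR 4.0.16 (R 4.3.3), TMM scaling and the robust quasi-likelihood F test with Benjamini-Hochberg adjustment over all genes tested, on the 6 libraries of this time. Changes at an adjusted p under 0.05 were called. SE is the log2 change divided by the square root of F. DESeq2 1.42.0 and limma 3.58.1 were alternatives. Gene types, positions and overlaps came from GENCODE release 29, and promoters from RefSeq. On simulated counts for 16767 genes, 79 of 100 changes of 1.5-fold and 93 of 100 of 2-fold were recovered, with 10 false calls. The simulation used the control means and the spread fitted to these libraries, and changed no other genes. In the data 43.6% of genes were called, so these counts do not give the recovery or false calls of the real comparison. Same-numbered siNC and siANLN libraries deviated from their group means with correlations of −0.007, −0.0178 and 0.0297. Correlations this small show no shared deviation. They cannot exclude that same-numbered libraries were paired, which the labels do not state.

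The text names ANLN, the 15 largest rises and falls of called protein-coding genes averaging 5 CPM or more, the 10 largest each way at 100 CPM or more, and the 5 largest each way among long non-coding RNA genes, all without overlap between groups. It also names up to 5 called members of each gene list in its main direction and up to 3 in the other, taken by the smallest p. Uncalled members are named where a list has at most 5. Of the 424 genes so named 6 are not reported here. The lists and this rule were chosen with earlier results of these data known.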

Additional observations from a re-analysis of the deposited data

Results flagged for a closer look

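Of the 418 named genes, 10 had groups that did not overlap at either time and that moved one way at 48 h and the other way at 24 h. Of the 404 named genes tested at both times this is 2.48%, against 1.64% (216) of all 13184 genes tested at both times. Many named genes were picked for a call or a lack of overlap at 48 h. Of all genes tested at 48 h 49.7% had no overlap, so these shares are not like with like. The difference between the times was not tested, since the tables were made separately. At 48 h and 24 h the log2 changes were 1.47 and −0.25 for OLR1, 0.43 and −0.14 for the cytokine LIF, and 0.29 and −0.10 for EMP1. For PLXND1 they were −0.58 and 0.15, for BCL2L11 −0.36 and 0.11, for SMAD1 −0.28 and 0.15, and for ERBB3 −0.16 and 0.14. Changes were smaller in KRT8 (0.06 and −0.06), LAMB3 (0.10 and −0.15) and MAFK (0.13 and −0.19). All 10 were called at 48 h, whereas by edgeR with Benjamini-Hochberg adjustment LAMB3 (adjusted p = 0.00061) and MAFK (adjusted p = 0.024) also passed at 24 h.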

How the results depend on the processing

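Of the 7402 changes, leaving out 1 library at a time left 6631 to 6809 genes changed, 3407 to 3494 higher and 3224 to 3315 lower, with 130 to 155 higher and 298 to 371 lower by 2-fold or more, and 456 to 475 called list members in place of 490. With the replicate number as a block 7355 genes changed, and no call of a named gene was lost. DESeq2 called 5475 genes, and limma-trend on log2(FPKM + 0.1) called 5999. Calls at 2-fold or more fell to 82 higher under limma-trend with a pseudocount of 0.1, and to 36 higher and 41 lower with a pseudocount of 1, where low genes are drawn toward 0 by the pseudocount. A restriction to the 12411 genes within 4-fold between the tables was chosen after seeing the data. It kept 5964 of the 7402 changes and 101 of the 127 rises of 2-fold or more. Of the 293 falls of 2-fold or more it kept 195, a smaller share than of the rises. Many of the larger falls thus lie in genes whose control levels differ between the tables or are missing from 1. Why was not tested. With library totals alone 3138 genes were higher and 4265 lower, and the median over all genes moved to −0.039. No called change among 417 named genes turned direction under the alternatives that refit the data, of which the stricter filter kept 410 of them, while DESeq2 lost 13 calls, library totals 5, no filter 4, limma-trend 20 and 19, and leaving out a library 5 to 7. Genes near 1 CPM rest on about 12 reads per library and limit what small changes can show.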
